A study of Homo sapiens with 3 samples.

Results

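FOXO transcription factors and a set of genes they are known to control were examined in RNA-sequencing libraries from cells in which the mitochondrial carrier UCP2 was targeted. The genes were chosen by symbol: the factors FOXO1, FOXO3 and FOXO4, and the target genes SESN1, SESN3, KLF6, PIK3IP1, IRS2, CCNG2 and BCL6. These 10 genes were each found once among the 61806 genes of the table, and all 10 passed the filter on low counts that left 15232 genes to test. Of the 10, FOXO3, SESN3 and KLF6 rose in the libraries labelled shUCP2 compared with the control library and none fell. IRS2 had a fold change of similar size but missed the threshold, FOXO1 was the least abundant gene of the set, and SESN1 was nearly level.

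FOXO proteins bind DNA through a forkhead domain and switch on genes for stress resistance, cell cycle arrest, cell death and feedback on insulin signaling. Growth factors acting through PI3K and AKT cause FOXO proteins to be phosphorylated, bound by 14-3-3 proteins and kept out of the nucleus, so much of their control lies in the protein and not in the transcript. In blood-forming cells FOXO factors are known for keeping stem cells quiescent and for limiting reactive oxygen species.

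The libraries were 3 in number. Both libraries labelled shUCP2, titled shUCP2#2 and shUCP2#3, were described as KG1 cells carrying a lentiviral short hairpin RNA against UCP2, 1 library per hairpin. The control library was described as KG1 cells carrying the control vector, and in all arms transduced cells were selected after 72 h and expanded. KG1 is an established human acute myeloid leukemia line. The series' design text numbers the hairpins 1 and 2, and the sample titles were followed here. The labels describe a DNA extraction although total RNA is given as the molecule. The arms differ in vector, and the labels name no repeat culture within an arm. The p-values therefore rest on the spread between the shUCP2 libraries, which mixes any difference between the hairpins with technical spread. In the main test, that of edgeR, this spread was pooled over genes of similar abundance. A gene's own agreement between the shUCP2 libraries carried no weight in its p-value there. The single control is assumed to vary like the others.

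The libraries differed little in depth, with 16475165 counts for shUCP2#2, 17562153 for shUCP2#3 and 18375090 for the control. The targeted transcript was not lower: UCP2 had 608 counts in the library labelled shUCP2#2 and 649 in that labelled shUCP2#3, against 651 in the control (log2 fold change 0.06, SE 0.15, adjusted p = 0.888, edgeR). Many markers went against the label KG1, with 7 of 12 myeloid and progenitor markers not passing the filter on low counts. Of 12 myeloid and progenitor markers, 4 exceeded 10 CPM (counts scaled to library size) in every library, namely PTPRC, CD33, SPI1 and KIT, with PTPRC at 170 and 189 CPM in shUCP2#2 and shUCP2#3, against 157 CPM in the control. Another 4 of the 12 had 0 counts in every library, MPO, CD38 and HLA-DRA among them, and CD34, a defining marker of this line, had 10, 0 and 0 counts in shUCP2#2, shUCP2#3 and the control. Of 12 erythroid markers, which this label does not predict, 11 exceeded 10 CPM in every library. HBG2 and GATA1 are given after their values were seen. HBG2 had 928 and 935 CPM in shUCP2#2 and shUCP2#3, against 1349 CPM in the control, and GATA1 had 175 and 161, against 206 CPM. Which cells were sequenced was not tested. Erythroid markers moved with the comparison, with 7 of 12 lower, 1 higher and a summed level of 3530 and 3516 CPM in shUCP2#2 and shUCP2#3, against 4590 CPM in the control. Fibroblast and matrix markers were highest in shUCP2#2: 9 of 12 were called higher, and their sum was 484 CPM in shUCP2#2 and 226 CPM in shUCP2#3, against 281 CPM in the control, where FN1 alone gave 280 and 207 CPM, against 267 CPM. Within that list COL1A1 had 507 counts in shUCP2#2, 0 in shUCP2#3 and 0 in the control, and COL1A2 had 806, 3 and 2. COL6A3 and PDGFRB were also above the control in shUCP2#3, with 478 and 227 counts, against 153, for COL6A3 and 48 and 20 counts, against 4, for PDGFRB. The part of either marker list in the changes below was not tested. Each of the 10 genes is also given for shUCP2#3 alone. In bulk RNA a smaller share of cells expressing a gene and less RNA per cell cannot be told apart.

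The DNA letters around the start sites of these genes were read to show whether the element that FOXO proteins bind was present. RefSeq promoter windows (GRCh38.p14, 300 bases, 250 before and 50 after the start) matched all 10 genes, with 17 windows among them. The full element GTAAACA, or TGTTTAC on the other strand, was found in 2 of the 17 windows, those of FOXO4 and PIK3IP1, against 3.42% of all 34943 windows in the table. The shorter core TAAACA, or TGTTTA on the other strand, which lies inside the full element, was found in 3 of the 17, adding a FOXO3 window, against 12.3% of all windows. These sites are shown with the match in capitals, 30 bases each, at chrX:71095863-71095892 (plus strand), chr22:31292455-31292484 (minus strand) and chr6:108560672-108560701 (plus strand).
FOXO4 site: cccggcgagtgGTAAACAgagacgtcagga
PIK3IP1 site: ctaaagagaggcTGTTTACcagaacagcat
FOXO3 site: ccgagcgaaacaTAAACAaacgcacgcaca
Counted from 0 at the start site of the window, the 6 letters of the core began at position 24 in FOXO4, 16 in PIK3IP1 and -233 in FOXO3. The FOXO3 site lies inside the deposited gene, which begins at 108559835, so its window belongs to a start site within the gene.

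Upstream sequence is shown for the 3 genes that rose, from the outer end of the window to the edge of the deposited gene, so that its base composition can be compared between them. It covers chr6:108559575-108559824 on the plus strand for FOXO3 (250 bases), chr10:3785282-3785459 on the minus strand for KLF6 (178 bases) and chr11:95232542-95232725 on the minus strand for SESN3 (184 bases). Capitals mark the GC box, GGGCGG or CCGCCC, and the CCAAT box, CCAAT or ATTGG, which are common promoter elements found in 44.9% and 34.6% of all windows.
FOXO3 upstream: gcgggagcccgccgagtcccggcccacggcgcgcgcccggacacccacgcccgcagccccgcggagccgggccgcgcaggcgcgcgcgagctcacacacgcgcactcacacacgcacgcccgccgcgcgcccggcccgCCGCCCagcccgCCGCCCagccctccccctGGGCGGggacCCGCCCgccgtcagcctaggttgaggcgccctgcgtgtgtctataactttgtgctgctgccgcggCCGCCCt
KLF6 upstream: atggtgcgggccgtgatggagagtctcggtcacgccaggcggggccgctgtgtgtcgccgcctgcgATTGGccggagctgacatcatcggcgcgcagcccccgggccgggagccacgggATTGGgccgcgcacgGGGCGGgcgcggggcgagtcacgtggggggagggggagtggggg
SESN3 upstream: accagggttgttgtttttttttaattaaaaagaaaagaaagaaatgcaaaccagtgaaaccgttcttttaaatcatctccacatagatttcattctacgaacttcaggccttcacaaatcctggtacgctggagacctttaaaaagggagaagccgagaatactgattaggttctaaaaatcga
None of these 3 stretches held the FOXO core. FOXO3 carried GC boxes only, KLF6 carried a pair of CCAAT boxes and a GC box, and SESN3 carried neither element. A match or its lack describes these letters and says nothing about binding.

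Levels were first ordered per length, in FPKM (counts scaled to both exonic length and library total). KLF6 was the most abundant of the genes, between 19.38 and 30.42 FPKM over the 3 libraries, followed by FOXO3 between 12.73 and 18.87 and FOXO4 between 8.47 and 10.56. BCL6 and CCNG2 came next, between 4.02 and 5.04 and between 3.96 and 4.62 FPKM, and their ranges overlapped. SESN1 lay between 3.06 and 3.19 FPKM, above PIK3IP1 at 2.33 to 2.83. The ranges of PIK3IP1 and SESN3 overlapped, as did those of SESN3 and IRS2, so these neighbours have no clear order. FOXO1 was last at 0.53 to 0.83 FPKM, and only 22.6% of the tested genes had a lower mean, compared with 83.3% for FOXO3 and 89.0% for KLF6.

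**Figure D1:**
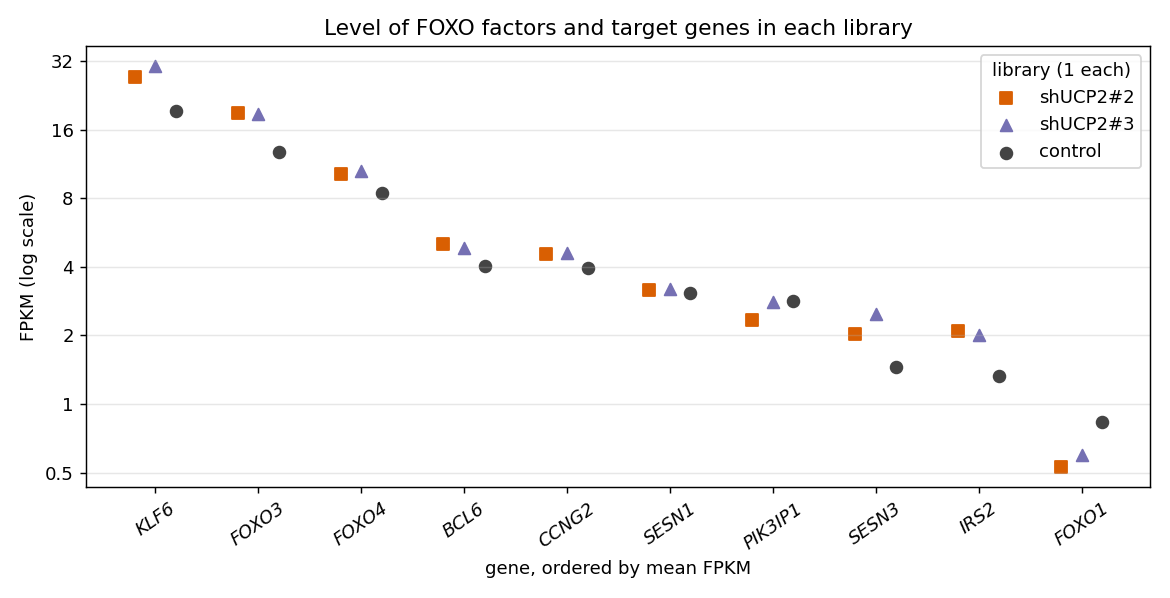
FPKM on a log scale (vertical axis) of the 10 genes (horizontal axis, ordered by mean FPKM), with 1 point per library: squares for shUCP2#2, triangles for shUCP2#3 and circles for the control. KLF6, FOXO3, SESN3 and IRS2 lie visibly above the control in both shUCP2 libraries, and FOXO1 lies below it at under 1 FPKM.

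The factors themselves were compared next. FOXO3 (ENSG00000118689, chromosome 6, 108559835 to 108684774, plus strand, GRCh38), the main FOXO transcript here and a factor known for stress resistance and stem cell quiescence, had 2384 counts (18.87 FPKM) in shUCP2#2 and 2512 counts (18.65 FPKM) in shUCP2#3, against 1794 counts (12.73 FPKM) in the control. Both shUCP2 libraries were higher than the control and close to each other. The fold change was 1.47 (95% interval 1.28 to 1.69), or 0.56 on the log2 scale with an SE of 0.10, and it passed the test (adjusted p = 4.28e-06, edgeR quasi-likelihood test with Benjamini-Hochberg adjustment over all tested genes). Set against the control alone, the log2 difference was 0.57 for shUCP2#2 and 0.54 for shUCP2#3. The ratio of the shUCP2 libraries to each other, 0.979 for #3 over #2, lay within counting error (95% interval 0.925 to 1.04).

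FOXO3 has a near-identical copy, FOXO3B, that can share its reads. FOXO3B had 48 and 68 counts in shUCP2#2 and shUCP2#3, against 87 in the control, the opposite direction to FOXO3, and it did not pass the test (log2 fold change -0.48, SE 0.42, adjusted p = 0.570, edgeR). Summing both genes gave 2432 and 2580 counts in shUCP2#2 and shUCP2#3, against 1881 in the control, with ratios to the control of 1.45 and 1.43 after scaling.

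FOXO4 (ENSG00000184481, chromosome X, 71095851 to 71103532, plus strand), the factor whose promoter window held the full element, had 637 and 703 counts (10.2 and 10.56 FPKM) in shUCP2#2 and shUCP2#3, against 590 counts (8.47 FPKM) in the control. Its log2 fold change was 0.29 (SE 0.15, adjusted p = 0.240, edgeR), which did not pass. FOXO1 (ENSG00000150907, chromosome 13, 40555667 to 40666641, minus strand), the factor best known for insulin responses in liver and for lymphocyte development, had 52 and 63 counts (0.53 and 0.60 FPKM) in shUCP2#2 and shUCP2#3, against 91 counts (0.83 FPKM) in the control. Although both shUCP2 libraries were lower, the log2 fold change of -0.55 had an SE of 0.42 and an adjusted p of 0.482 (edgeR), and at these counts the 95% interval of the fold change reached from 0.385 to 1.20. The fourth factor, FOXO6, had 24 and 11 counts in shUCP2#2 and shUCP2#3, against 14 in the control, and did not pass (adjusted p = 0.882, edgeR). FOXO1B, a copy of FOXO1, had 0, 0 and 1 counts in the same libraries.

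The FOXO pool was therefore described by its makeup. The summed level of the FOXO genes was 30.2 FPKM in shUCP2#2 and 30.1 FPKM in shUCP2#3, against 22.3 FPKM in the control. FOXO3 made up 62.5% and 62.0% of this sum in shUCP2#2 and shUCP2#3, against 57.0% in the control. FOXO1 made up 1.76% and 2.00%, against 3.72% in the control, and FOXO4 33.8% and 35.1%, against 37.9%. The ratio of FOXO3 to FOXO1 per length was 35.6 and 31.1 in the shUCP2 libraries, against 15.3 in the control, a description of 3 libraries with no test.

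Among the targets, the sestrins came first. These proteins limit oxidative stress and restrain mTORC1, and SESN3 is a well-known FOXO target while SESN1 also responds to p53. SESN3 (ENSG00000149212, chromosome 11, 95165513 to 95232541, minus strand) had 352 counts (2.02 FPKM) in shUCP2#2 and 463 counts (2.49 FPKM) in shUCP2#3, against 281 counts (1.45 FPKM) in the control. It rose 1.56-fold (95% interval 1.20 to 2.03; log2 fold change 0.64, SE 0.19, adjusted p = 0.0122, edgeR). Both shUCP2 libraries lay above the control, and shUCP2#3 exceeded shUCP2#2 by a ratio of 1.22 (95% counting interval 1.06 to 1.41). An overlapping gene on the other strand, LNCRNA-IUR, had only 28, 7 and 16 counts in shUCP2#2, shUCP2#3 and the control. DESeq2 did not call SESN3 (adjusted p = 0.237).

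SESN1 (ENSG00000080546, chromosome 6, 108984309 to 109094846, minus strand) had 380 and 408 counts (3.17 and 3.19 FPKM) in shUCP2#2 and shUCP2#3, against 409 counts (3.06 FPKM) in the control. Scaled to depth, the 3 libraries lay within counting error of each other, and the log2 fold change was 0.05 (SE 0.18, adjusted p = 0.912, edgeR). The fold change of 1.04 had a 95% interval of 0.813 to 1.33, which includes a moderate change in either direction. Per length, SESN3 stood at 0.637 and 0.781 of SESN1 in the shUCP2 libraries, against 0.474 in the control. SESN2, a relative chosen after its values were seen, had 842 and 956 counts in shUCP2#2 and shUCP2#3, against 754 in the control (log2 fold change 0.36, SE 0.14, adjusted p = 0.0766, edgeR).

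Neither target that feeds back on insulin and PI3K signaling passed the test. IRS2 (ENSG00000185950, chromosome 13, 109752695 to 109786583, minus strand), the adaptor that links the insulin receptor to PI3K, had 281 counts (2.09 FPKM) in shUCP2#2 and 287 counts (2.00 FPKM) in shUCP2#3, against 198 counts (1.32 FPKM) in the control. Both shUCP2 libraries were above the control, by 0.66 and 0.59 on the log2 scale. The fitted log2 fold change of 0.63 was as large as that of SESN3, but its SE was 0.24 and its adjusted p 0.0573 (edgeR), just above the threshold of 0.05, and upper-quartile scaling brought it to 0.0462. PIK3IP1 (ENSG00000100100, chromosome 22, 31281594 to 31292534, minus strand), an inhibitor of PI3K, had 146 and 187 counts (2.33 and 2.80 FPKM) in shUCP2#2 and shUCP2#3, against 198 counts (2.83 FPKM) in the control. It did not pass (log2 fold change -0.14, SE 0.27, adjusted p = 0.835, edgeR), with -0.27 for shUCP2#2 and -0.03 for shUCP2#3.

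CCNG2 (ENSG00000138764, chromosome 4, 77157207 to 77433388, plus strand) encodes cyclin G2, an unconventional cyclin linked to cell cycle arrest. It had 553 and 602 counts (4.53 and 4.62 FPKM) in shUCP2#2 and shUCP2#3, against 540 counts (3.96 FPKM) in the control. The log2 fold change was 0.21 (SE 0.16, adjusted p = 0.497, edgeR), which did not pass, although both ratios to the control exceeded counting error (1.15 with a 95% interval of 1.02 to 1.29 for shUCP2#2, and 1.16 with 1.03 to 1.30 for shUCP2#3).

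Of the transcription factors among the targets, KLF6 passed the test and BCL6 did not, and the difference between them was not tested. KLF6 (ENSG00000067082, chromosome 10, 3775996 to 3785281, minus strand), a zinc finger factor known to respond to stress and injury, had 2755 counts (27.24 FPKM) in shUCP2#2 and 3280 counts (30.42 FPKM) in shUCP2#3, against 2186 counts (19.38 FPKM) in the control. It rose 1.49-fold (95% interval 1.30 to 1.70; log2 fold change 0.57, SE 0.10, adjusted p = 5.86e-07, edgeR). The difference from the control was larger in shUCP2#3 than in shUCP2#2 (log2 0.64 and 0.50), and the ratio of #3 to #2 was 1.11 (95% counting interval 1.05 to 1.16). BCL6 (ENSG00000113916, chromosome 3, 187721377 to 187745725, minus strand), a repressor that is central to germinal center B cells and induced by FOXO factors in some leukemias, had 493 and 505 counts (5.04 and 4.84 FPKM) in shUCP2#2 and shUCP2#3, against 438 counts (4.02 FPKM) in the control. Its log2 fold change of 0.30 (SE 0.17, adjusted p = 0.281, edgeR) did not pass.

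**Figure D2:**
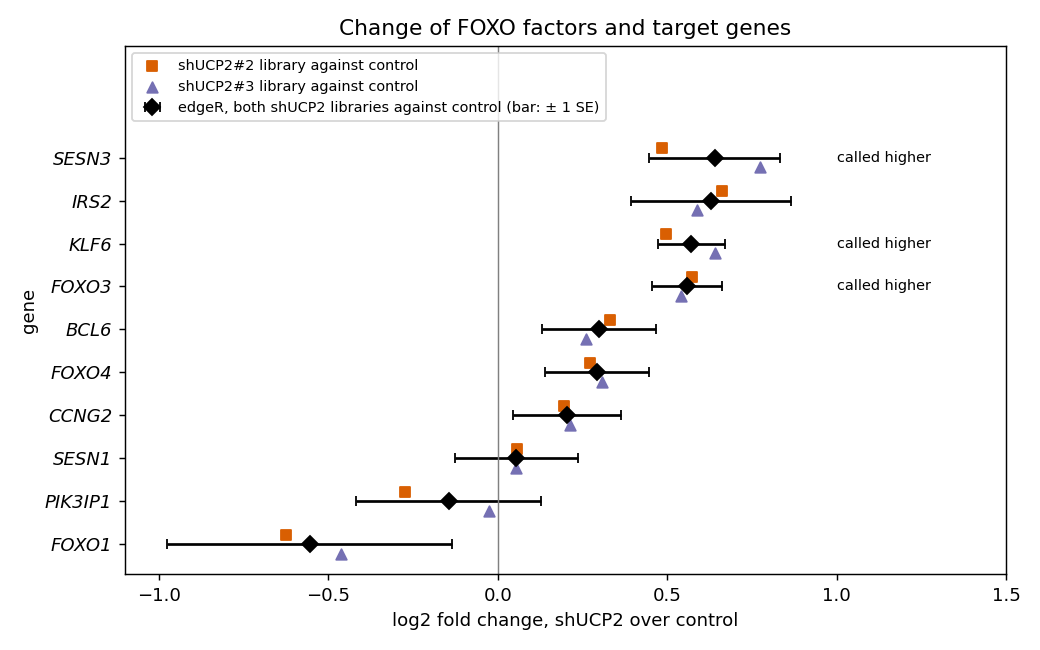
Log2 fold change of shUCP2 over control (horizontal axis) for the 10 genes (vertical axis). Diamonds are the edgeR estimate from both shUCP2 libraries with a bar of ± 1 SE, squares and triangles are shUCP2#2 and shUCP2#3 set against the control alone. SESN3, KLF6 and FOXO3 passed the test, at 0.64, 0.57 and 0.56.

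As a group, 3 of the 10 genes were called higher (30%) and 0 lower. The genes and the wider lists below were chosen with earlier results of these data known, so their shares and medians only describe them. Over all tested genes the edgeR test called 12.4%, with 6.25% higher and 6.11% lower. These shares are not matched for abundance. In every library 8 of the 10 genes exceeded 10 CPM, as did 8253 of the 15232 tested genes. A fit limited to the 6159 genes with a mean of at least 5 FPKM called 1411 of them, a larger share than over all tested genes. It tested 3 of the 10 genes and called 2 of these, FOXO3 and KLF6. The median log2 fold change of the 10 was 0.29, against 0.02 over all tested genes, and it was 0.30 for shUCP2#2 and 0.28 for shUCP2#3. Both shUCP2 libraries lay above the control for 8 of the 10 genes and below it for 2, FOXO1 and PIK3IP1, whereas 38.6% of all tested genes lay above in both and 38.1% below in both. DESeq2, which called 8.25% of the 7552 genes it gave an adjusted p, called FOXO3 (adjusted p = 0.00101) and KLF6 (adjusted p = 0.000427). With 1 control library, any deviation of that library enters every one of these differences. A variance model without a trend on abundance called none of the genes, and neither did limma on log2 FPKM, with adjusted p up to 0.425 for FOXO3, SESN3 and KLF6.

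A wider set of 74 genes known as FOXO targets, the target genes above included, was then described by role. Of its 63 tested genes, 10 were called higher and 0 lower, 15.9% in all, against 12.4% of all tested genes in either direction. By direction, 6.25% of all tested genes were called higher and 6.11% lower. The comparison is not matched for abundance: 41 genes of the set exceeded 10 CPM in every library, as did 8253 of all 15232 tested genes. The fit limited to a mean of at least 5 FPKM called 1411 of 6159 genes, a larger share than either of these. The median log2 fold change of the set was 0.19 (0.12 for shUCP2#2 and 0.21 for shUCP2#3). The share called in the 6 role groups lay between 7.69% and 22.2%, on 6 to 13 tested genes each.

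In the stress and antioxidant group, 2 of 13 tested genes were called, TXNIP and SESN3. TXNIP, which binds thioredoxin and limits glucose uptake, had 7147 and 8043 counts in shUCP2#2 and shUCP2#3, against 1773 in the control (log2 fold change 2.21, SE 0.10, adjusted p = 3.59e-110, edgeR). The peroxiredoxins, which break down peroxides, did not pass, with PRDX3 at 55.0 and 55.5 FPKM in shUCP2#2 and shUCP2#3, against 55.2 FPKM in the control, and PRDX5 at 155 and 147, against 149 FPKM. The median of the group, 0.04 (0.05 for shUCP2#2 and 0.03 for shUCP2#3), was near that of all genes.

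In the insulin and growth factor group, 2 of 11 tested genes were called. RICTOR, the defining subunit of mTORC2, which phosphorylates AKT, had 2660 and 2723 counts in shUCP2#2 and shUCP2#3, against 1922 in the control (log2 fold change 0.60, SE 0.10, adjusted p = 3.86e-07, edgeR). PDK4, a kinase that shuts off pyruvate dehydrogenase, had 36 counts in shUCP2#2, 1 in shUCP2#3 and 0 in the control, so its call (adjusted p = 0.0390, edgeR) rested on shUCP2#2, the library with the highest fibroblast and matrix markers, whose part in it was not tested. The translation repressor EIF4EBP1 had 73.3 and 66.5 FPKM in shUCP2#2 and shUCP2#3, against 58.8 FPKM in the control, and the pseudokinase TRIB2 had 41.3 and 40.6, against 37.05 FPKM, neither past the test.

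In the cell cycle group, 1 of 13 tested genes was called, and it was CCND2, a D-type cyclin that FOXO factors are known to repress and that drives entry into the cycle. CCND2 had 797 and 962 counts in shUCP2#2 and shUCP2#3, against 340 in the control (log2 fold change 1.48, SE 0.16, adjusted p = 2.84e-17, edgeR). Its relative CCND1 had 15.9 and 19.6 FPKM in shUCP2#2 and shUCP2#3, against 16.2 FPKM in the control. CITED2, a coactivator partner, stood at 36.6 and 38.3 FPKM against 42.9 FPKM, and MXI1, an antagonist of MYC, at 20.1 and 18.6 FPKM against 16.6 FPKM. None of these other three passed the test.

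In the cell death group, 2 of 9 tested genes were called, BBC3 and PMAIP1, both BH3-only activators of apoptosis. BCL2L11 (BIM), another BH3-only gene of the group, chosen after its values were seen, did not pass. It had 572 and 620 counts in shUCP2#2 and shUCP2#3, against 595 in the control (log2 fold change 0.11, SE 0.16, adjusted p = 0.763, edgeR). BBC3 (PUMA) had 448 and 347 counts in shUCP2#2 and shUCP2#3, against 263 in the control, with log2 differences of 0.93 and 0.45 (fitted 0.71, SE 0.20, adjusted p = 0.00518, edgeR). PMAIP1 (NOXA) had 1234 and 1370 counts, against 934 in the control (log2 fold change 0.59, SE 0.13, adjusted p = 0.000163, edgeR). The mitophagy receptors were more abundant and did not pass, with BNIP3L at 127 and 130 FPKM in shUCP2#2 and shUCP2#3, against 113 FPKM in the control, and BNIP3 at 43.2 and 41.2, against 40.7 FPKM.

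In the autophagy and proteolysis group, 2 of 11 tested genes were called. ULK1, the kinase that starts autophagy, had 350 and 345 counts in shUCP2#2 and shUCP2#3, against 251 in the control (log2 fold change 0.58, SE 0.21, adjusted p = 0.0441, edgeR). GABARAPL1, an ATG8-family protein of the autophagosome, had 663 and 635 counts, against 515 in the control (log2 fold change 0.44, SE 0.16, adjusted p = 0.0418, edgeR). MAP1LC3B, of the same protein family, had 41.4 and 43.9 FPKM against 37.5 FPKM, and the deubiquitinase USP14 had 37.9 and 38.3 FPKM against 38.6 FPKM, neither past the test.

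In the group of transcription factors and lymphoid genes, KLF6 was the only one of 6 tested genes to pass. The DNA damage kinase ATM had 715 and 720 counts in shUCP2#2 and shUCP2#3, against 631 in the control (adjusted p = 0.220, edgeR). The chemokine receptor CCR7 and the zinc finger factor KLF4 were low, with 16 and 31 counts against 19 for CCR7, and 32 and 41 counts against 20 for KLF4. A further list joined targets among the 10 genes with their relatives, 11 tested genes in all. Its 2 called genes, SESN3 and KLF6, belong to the 10 genes, and no tested relative passed. They made up 18.2%, against 12.4% of all tested genes, which is not matched for abundance. The abundant relatives CCNG1 and CCNI had log2 fold changes of -0.06 (SE 0.08) and 0.12 (SE 0.08).

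**Figure D3:**
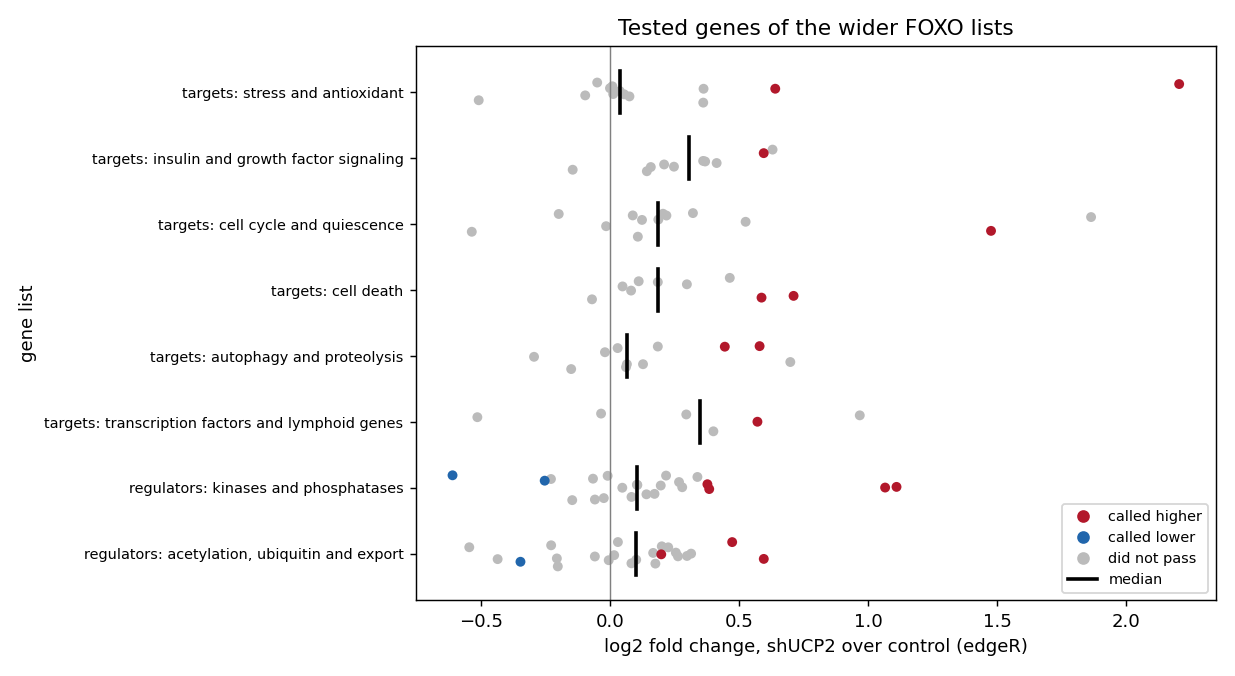
EdgeR log2 fold change of shUCP2 over control (horizontal axis) for each tested gene of 6 FOXO target lists and 2 regulator lists (vertical axis), red where called higher, blue where called lower and grey where the test was not passed, with the median of the plotted genes as a black bar. Tested genes with 3 or fewer counts in the control, PDK4 among them, are left out. No target is blue, while the regulators hold genes of both colours.

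The proteins that act on FOXO factors were examined last. Among kinases and phosphatases 4 of 24 tested genes were called higher and 2 lower, 25% in all, against 12.4% of all tested genes. The comparison is not matched for abundance: 21 of these genes exceeded 10 CPM in every library, as did 8253 of all 15232 tested genes. The fit limited to a mean of at least 5 FPKM called 1411 of 6159 genes. That share is larger than the one over all tested genes. AKT1, the kinase that excludes FOXO proteins from the nucleus, fell to 681 and 759 counts in shUCP2#2 and shUCP2#3, against 1185 in the control (log2 fold change -0.61, SE 0.14, adjusted p = 0.000228, edgeR). The related SGK3 rose, with 137 and 127 counts against 66 (log2 fold change 1.11, SE 0.35, adjusted p = 0.0188, edgeR), as did PHLPP2, a phosphatase that removes an activating phosphate from AKT, with 198 and 190 counts against 100 (log2 fold change 1.07, SE 0.30, adjusted p = 0.00628, edgeR). AKT1 and PHLPP2 thus changed in opposite directions in both shUCP2 libraries. AKT2, chosen after its values were seen, had 934 and 1014 counts in shUCP2#2 and shUCP2#3, against 1057 in the control (log2 fold change -0.01, SE 0.13).

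The stress kinase p38 alpha, MAPK14, had 2411 and 2486 counts in shUCP2#2 and shUCP2#3, against 2024 in the control (log2 fold change 0.38, SE 0.10, adjusted p = 0.00298, edgeR). The remaining called genes of the list, chosen after their values were seen, were the casein kinase CSNK1A1 (3354 and 3903 counts against 3008, adjusted p = 0.00113, edgeR), which rose, and PPP2R1A, the scaffold of the phosphatase PP2A (2787 and 3035 counts against 3741, adjusted p = 0.0481, edgeR), which fell. The casein kinase adds phosphates to FOXO proteins and PP2A removes them.

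Among genes for acetylation, ubiquitination and nuclear export, 3 of 23 tested genes were called higher and 1 lower, 17.4% in all, against the same 12.4%. All 23 exceeded 10 CPM in every library, so this comparison is not matched for abundance either. The acetyltransferases that serve FOXO factors as coactivators both rose: CREBBP had 652 and 708 counts in shUCP2#2 and shUCP2#3, against 485 in the control (log2 fold change 0.60, SE 0.16, adjusted p = 0.00319, edgeR), and EP300 had 809 and 894 counts, against 661 (log2 fold change 0.47, SE 0.15, adjusted p = 0.0148, edgeR). The 14-3-3 proteins, which hold phosphorylated FOXO in the cytoplasm, went both ways. YWHAE fell to 109 and 106 FPKM in shUCP2#2 and shUCP2#3, against 137 FPKM in the control (log2 fold change -0.35, SE 0.08, adjusted p = 0.000539, edgeR). YWHAZ rose to 209 and 223 FPKM, against 188 FPKM (log2 fold change 0.20, SE 0.06, adjusted p = 0.0217, edgeR). Protein levels, phosphorylation and the place of FOXO proteins in the cell were not measured by these libraries.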

How the data were processed

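The authors deposited 1 table with a raw count per gene and library and, beside it, FPKM, which was the count over exonic length and library total. The submitters' processing notes list HISAT2 2.2.1 and HTSeq 0.6.1, besides Cufflinks 2.2.1, cutadapt 1.9.1, DESeq2, SAMtools 0.1.19 and the build GRCh38. Annotation release and strand setting were not given in the sources used here, and overlapping genes and near-identical copies can share reads. The table also marks pathways, of which 22 entries were not used here. Groups came from sample titles.

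The test was that of edgeR 4.0.16 in R 4.3.3 on the counts (TMM, filterByExpr, quasi-likelihood F test, two-sided, Benjamini-Hochberg at 0.05 over all tested genes). The fit had 1 residual degree of freedom, a common dispersion of 0.0176 and an infinite prior degree of freedom, so the trend over abundance set the spread. CPM used totals over the tested genes with TMM scaling, and values per shUCP2 library used log CPM with a prior count of 2. Counting intervals are exact binomial at 95% and cover counting error only, as does the floor of 3 counts, 0.182, 0.171 and 0.163 CPM in shUCP2#2, shUCP2#3 and the control. Alternatives were DESeq2 1.42.0, limma 3.58.1 on log2(FPKM + 1) and log2(FPKM + 0.1), other scalings, filters and variance models, and leaving out each shUCP2 library. Steps were tested on simulated data. Named genes were the 10 genes, FOXO6, near-identical copies, UCP2 and up to 4 genes per list, called genes first by size of change and then the most abundant; any further gene is marked as chosen with its values in view. The genes and lists were chosen with earlier results of these data known. Motifs were searched in RefSeq promoter windows (GRCh38.p14). Plots used matplotlib 3.10.9 under Python 3.11.15.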

Additional observations from a re-analysis of the deposited data

How the results depend on the processing

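The calls depended on how the spread was estimated from 2 libraries against 1. Of all genes, 1883 were called by edgeR, 623 by DESeq2, 0 without the abundance trend (1770 at an unadjusted p under 0.05), and 2 and 1 by limma on log2(FPKM + 1) and log2(FPKM + 0.1) (2291 and 2306 at an unadjusted p under 0.05). The count of the 10 genes called higher, 3, was 0 without the trend and 0 under both limma settings, where 3 had an unadjusted p under 0.05 each time. Those 3 were not the same genes throughout. Under limma they were FOXO3, KLF6 and FOXO4, and SESN3 ranked behind FOXO4. The limma adjusted p was 0.310 for SESN3 and 0.236 for FOXO4 on log2(FPKM + 1), and 0.294 and 0.232 on log2(FPKM + 0.1). FOXO3 and KLF6 were called in 5 of 8 settings, SESN3 in 3 of the 7 that tested it and IRS2 in 1. The count for wider targets, 10, was 5 with DESeq2, 0 without the trend and 1 under each limma setting, and that for the deposited FoxO pathway, 14, was 6, 0 and 0. The median of the 10 genes, 0.29, was 0.32 with upper-quartile scaling, 0.58 where a mean of 5 FPKM was required, leaving 3 genes, and 0.26 with limma on log2(FPKM + 1). Leaving out 1 shUCP2 library gave 0.28 to 0.30. Calls were not counted there, since no residual degree of freedom remained. Upper-quartile scaling split all calls into 1084 higher and 803 lower, against 952 and 931. No result changed direction under these settings. No paired analysis was possible because there was a single control library. Depth limits FOXO1 most, at 52 to 91 counts.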

Other observations

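The deposited annotation placed 187 genes in the FoxO signaling pathway, 6 of the 10 genes above among them (BCL6, CCNG2, FOXO1, FOXO3, FOXO4 and IRS2). Of its 103 tested genes, 13 were called higher and 1 lower (13.6%), with a median log2 fold change of 0.13 (0.11 for shUCP2#2 and 0.13 for shUCP2#3), and the same without those 6 genes gave 12 higher and 1 lower of 97 (13.4%), with a median of 0.12. The share in either direction was close to that of all tested genes, 12.4%, of which 6.25% were higher and 6.11% lower. These shares are not matched for abundance either.

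Several of the pathway's called genes were not described above and were chosen after their values were seen. The growth factor gene IGF1 rose at a low level, with 43 and 74 counts in shUCP2#2 and shUCP2#3, against 17 in the control (log2 fold change 1.87, SE 0.63, adjusted p = 0.0285, edgeR). PRKAB2, a regulatory subunit of AMPK, had 1358 and 1412 counts, against 870 (log2 fold change 0.78, SE 0.13, adjusted p = 1.17e-07, edgeR), and STK11, the kinase that activates AMPK, had 1233 and 1261 counts, against 979 (log2 fold change 0.46, SE 0.13, adjusted p = 0.00564, edgeR). PCK2, the mitochondrial phosphoenolpyruvate carboxykinase, had 1651 and 1825 counts, against 1201 (log2 fold change 0.64, SE 0.12, adjusted p = 2.17e-06, edgeR). TGFBR1, a TGF-beta receptor kinase, and SOS1, an exchange factor for RAS, rose by less, with log2 fold changes of 0.38 (SE 0.09) and 0.46 (SE 0.13). PLK1, a mitotic kinase, had 2687 and 2745 counts in shUCP2#2 and shUCP2#3, against 2426 in the control (log2 fold change 0.27, SE 0.10, adjusted p = 0.0457, edgeR).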
